A study of Mus musculus with 15 samples.

Results

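The levels of 8 long noncoding RNAs of neurons were followed through 15 single-cell libraries. They are Meg3, Rian, Mirg, Malat1, Neat1, Miat, Snhg11 and Dlx6os1. The genes were given by name and were found by their symbols among the 43629 genes of the deposited table, where the 8 symbols occupied 10 lines. Rian and Dlx6os1 each had 2 gene identifiers, and the one with the longer annotated exons stands for the gene unless its second entry is named. Cytosol was aspirated through a patch pipette from single interneurons in organotypic slice cultures of mouse hippocampus, prepared on postnatal day 6 to 7 from C57BL6 mice, and each cell gave 1 cDNA library amplified from polyadenylated RNA. The groups were 5 VGT3+ neurons (marked by the vesicular glutamate transporter gene Slc17a8), 5 Pv+ neurons (parvalbumin, Pvalb) and 5 Sst+ neurons (somatostatin, Sst). A separate mouse line gave each type: a Cre recombinase under VGT3, Pv or Sst control switched on the red reporter TdTomato, and red cells of the CA1 area were chosen. No animal or slice is named for any cell. Each type was therefore taken as 1 sample, no test was made between types, and every ± below is the spread (SD) between 5 cells of a type, which cannot be told apart from a spread between slices or animals. VGT3+ neurons 1 to 3 belonged to library batch G556 and all other cells to batch G709, so that VGT3+ neurons 4 and 5 are the only ones that share a batch with Pv+ and Sst+ neurons.

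A long noncoding RNA is a transcript not known to be translated into a protein, and many of these molecules stay in the nucleus. Malat1 gathers in nuclear speckles, the stores of splicing factors, Neat1 builds the paraspeckles, and Miat collects in nuclear spots and binds splicing factors. Meg3, Rian and Mirg are read in one direction from the maternal copy of the imprinted Dlk1-Dio3 region, and Rian and Mirg carry a large cluster of small nucleolar RNAs and microRNAs. Snhg11 hosts small nucleolar RNAs and is abundant in neurons. Dlx6os1, also called Evf2, is transcribed across the gap between the homeobox genes Dlx5 and Dlx6 in the forebrain GABAergic lineage. Because cytosol was drawn into the pipette, the level of nuclear transcripts in these libraries depends also on how much of the nucleus came along; that share was not measured, and fewer transcripts in a cell and fewer transcripts drawn from it cannot be told apart.

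The label of each cell was checked against its defining genes, and all 15 fitted. The gene Slc17a8 ranged over 106 to 354 TPM (transcripts per 1000000) among VGT3+ neurons, with 0.0516 TPM as the highest value outside them. Pvalb ranged over 3136 to 7383 TPM among Pv+ neurons, with 55.1 TPM as the highest value outside them. Sst ranged over 1804 to 4539 TPM among Sst+ neurons, with 0.458 TPM as the highest value outside them. The cells had between 5463 and 11156 genes above 0, and the spacing of low values put the reads counted on genes at 13217462 to 32177372 per cell. Transcripts of other cells were present: the summed level of 11 microglial genes ranged from 133 to 24356 TPM in VGT3+, from 4048 to 15781 TPM in Pv+ and from 0.433 to 5155 TPM in Sst+ neurons, whereas 4 of 6 endothelial genes were listed at 0 in every cell. The Y-linked genes Ddx3y and Eif2s3y were above 0 in all 5 Pv+ neurons, at 4.85 to 31.7 and 2.14 to 63.2 TPM, and did not exceed 0.0268 TPM in any VGT3+ or Sst+ neuron, so that the sex of the source animal cannot be told apart from Pv+ identity. One further property of the libraries touches the members. Of 172 gene models whose exons lie almost wholly (99% or more) under a gene on the opposite strand, 22, 32 and 50 were above 0 in VGT3+ neurons 3, 4 and 5, against 2 to 6 in each of the other 12 cells. Those 3 cells thus carried values for genes on both strands of one stretch of DNA that the other 12 lacked. Differences past 2-fold that they enter are given with VGT3+ neurons 1 and 2 alone beside them, a choice made after the data were seen. VGT3+ neurons 4 and 5 are also the only VGT3+ neurons of batch G709, and VGT3+ neurons 1 and 2 are both of batch G556. In values from either pair alone, library batch and this property cannot be told apart.

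The members differed widely in abundance. Malat1 and Snhg11 were above 10 TPM in all 15 cells, and Miat and Dlx6os1 were at 10 TPM or more in 10 and 9 cells and listed at 0 in 3 and 4. Mirg was at 1 TPM or more in 5 cells and at 0 in 4, and Neat1, Meg3 and Rian were at or near 0 in all but 1 cell, Pv+ neuron 3, where Neat1 reached 1.27 TPM. Malat1 exceeded Snhg11 in 14 of 15 cells and Miat in all 15, and Snhg11 exceeded Miat in all 15. Mirg exceeded Meg3 in 10 cells and was exceeded by it in 2. The neighbours Miat and Dlx6os1 had no fixed order: Miat was higher in 5 cells and Dlx6os1 in 8, with both at 0 in 2.

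**Figure D1:**
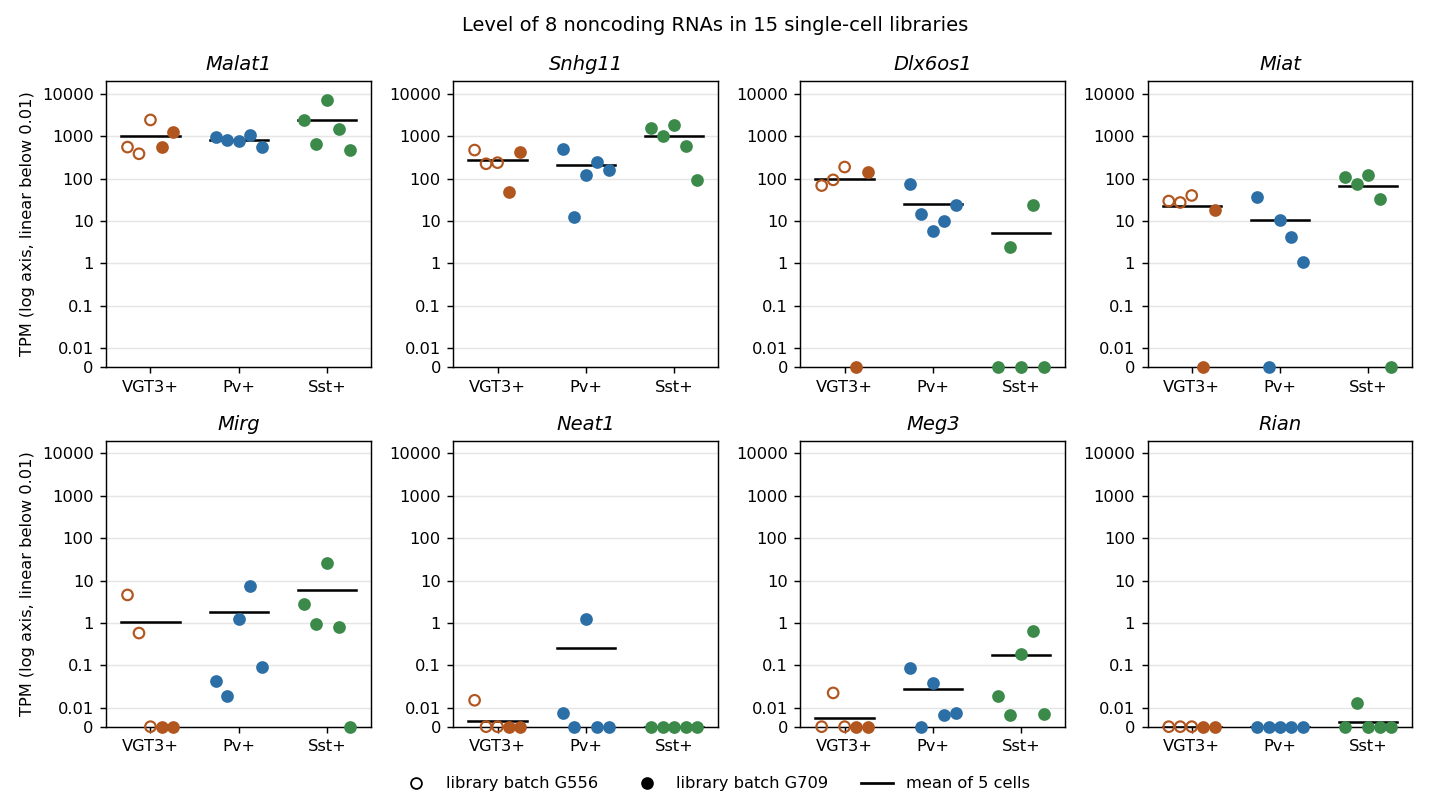
TPM of each of the 8 noncoding RNAs (vertical axis, logarithmic above 0.01 TPM and linear below) in VGT3+, Pv+ and Sst+ neurons (horizontal axis). Each point is 1 cell, open points are batch G556, filled points batch G709, and the bar is the mean of 5 cells; Malat1 and Snhg11 stood above 10 TPM in all 15 cells, while Meg3 did not pass 0.652 TPM and Rian 0.0128 TPM.

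Malat1 was the most abundant member. It is a single-exon transcript on the minus strand of chromosome 19 (chr19:5795690-5802672, GRCm38, 6983 exonic bases; lincRNA in the GENCODE M21 annotation). Malat1 stood at 554, 385, 2418, 560 and 1233 TPM in VGT3+ neurons 1 to 5. It stood at 937, 799, 771, 1093 and 561 TPM in Pv+ neurons 1 to 5, and at 2348, 664, 7298, 1516 and 467 TPM in Sst+ neurons 1 to 5. The ranges of the 3 types overlapped, Pv+ neurons lay closest together, and the highest value of all was that of Sst+ neuron 3, where Malat1 was the transcript of rank 9. Its rank in the remaining cells ran down to 439. The means were 1030 ± 841 TPM in VGT3+ neurons, 832 ± 199 TPM in Pv+ neurons and 2459 ± 2806 TPM in Sst+ neurons. On the scale of mean log2(TPM + 1), VGT3+ minus Pv+ was 0.00, VGT3+ minus Sst+ was -0.90 and Pv+ minus Sst+ was -0.90, all short of a 2-fold difference (1 on this scale). Both differences from Sst+ neurons turned on single cells: they were -1.32 and -1.33 without Sst+ neuron 5, and -0.33 and -0.34 without Sst+ neuron 3.

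The Malat1 values of VGT3+ neurons 3 to 5 shared bases with a gene model of the other strand. The model, RP24-458F14.4 (ENSMUSG00000102349, 453 bases, chr19:5801941-5802393, plus strand), lies wholly inside Malat1, over bases 280 to 732 of the Malat1 transcript. It was listed at 31392, 6930 and 16185 TPM in VGT3+ neurons 3, 4 and 5 and at 0 in VGT3+ neurons 1 and 2 and in all Pv+ and Sst+ neurons. Its TPM stood in a nearly fixed ratio to that of Malat1 in these cells, at 13.0, 12.4 and 13.1, and by length its reads came to 0.842, 0.802 and 0.851 of the Malat1 reads. In a library that does not mark strand, reads from Malat1 and from this model cannot be told apart. With the same number of reads taken off Malat1, an alternative that assumes equal reads on both strands and was chosen after the data were seen, Malat1 came to 382, 111 and 184 TPM in VGT3+ neurons 3, 4 and 5, and all 5 VGT3+ neurons then lay below all 5 Pv+ neurons, a separation without overlap that 4.66% of genes showed in one direction or the other as deposited. VGT3+ minus Pv+ was -1.54 under this alternative and -0.81 with VGT3+ neurons 1 and 2 alone, and VGT3+ minus Sst+ was -2.44 and -1.71.

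The end of that window is shown because it holds the stretch that recurs elsewhere in the transcriptome. It is the Malat1 strand of chr19:5801941-5802147 (GRCm38, minus strand, GENCODE M21), with capitals for bases covered by runs of 25 that also occur, on either strand, in a transcript of another gene:
Malat1 window: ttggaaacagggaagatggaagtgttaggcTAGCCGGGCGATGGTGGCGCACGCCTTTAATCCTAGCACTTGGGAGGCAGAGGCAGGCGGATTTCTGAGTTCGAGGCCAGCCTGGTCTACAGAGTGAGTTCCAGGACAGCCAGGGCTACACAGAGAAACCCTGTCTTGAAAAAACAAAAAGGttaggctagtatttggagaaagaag
The capitals are 152 of the 453 bases of the window (33.6%), and 3080 other annotated genes share at least 1 run of 25 bases with it. Whether reads of other genes were placed here was not tested.

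**Figure D2:**
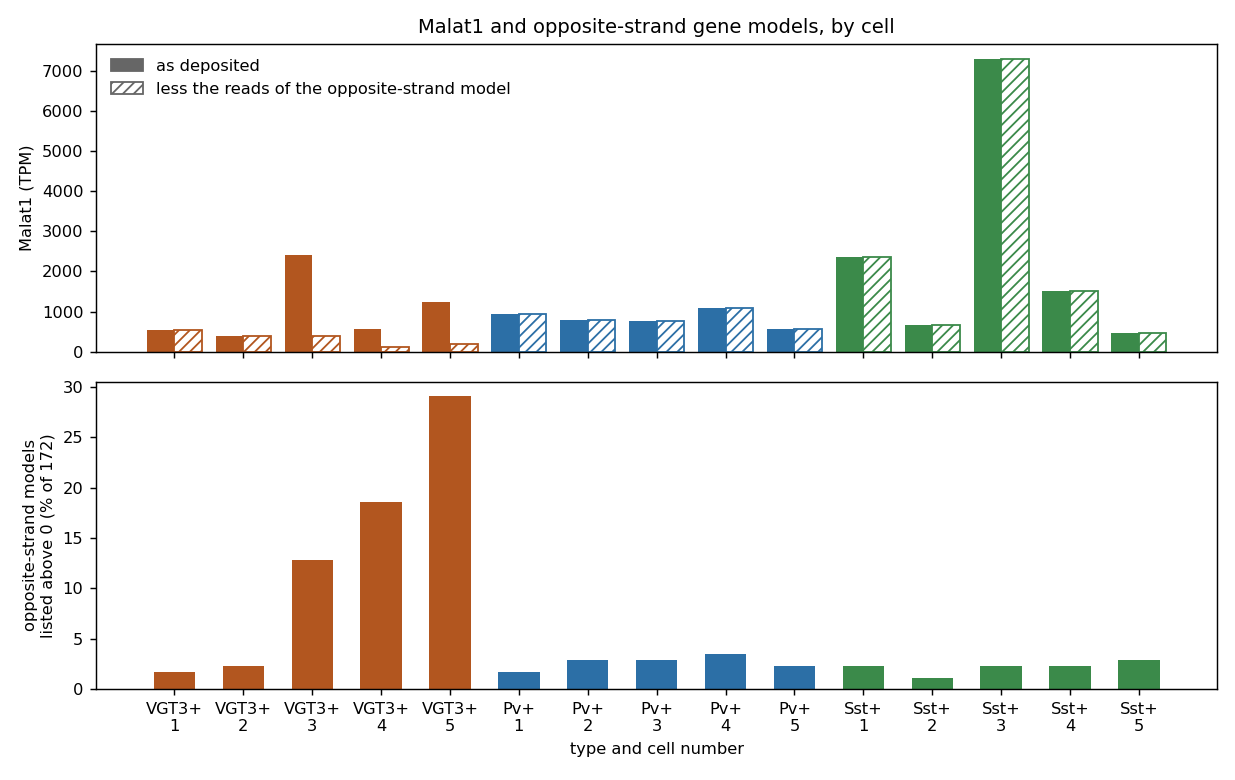
Malat1 in each cell in TPM (upper panel; filled bars as deposited, hatched bars less the reads of the opposite-strand model) and the share of 172 opposite-strand gene models listed above 0 (lower panel), by cell, in the order VGT3+, Pv+, Sst+. Filled and hatched bars part in VGT3+ neurons 3, 4 and 5, where the lower bars reach 12.8%, 18.6% and 29.1%, against 1.16% to 3.49% in the other 12 cells.

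Neat1, the neighbour of Malat1 on the same strand (chr19:5824708-5845478, minus strand, 20771 exonic bases), was near 0 in every library but 1. It was listed at 0.0151 TPM in VGT3+ neuron 1 and at 0 in the other 4 VGT3+ neurons. It had 0.00744 TPM in Pv+ neuron 1, 1.27 TPM in Pv+ neuron 3 and 0 in the other 3 Pv+ neurons, and was listed at 0 in all 5 Sst+ neurons. Converted to reads by the annotated length, these were 3, 1 and 194 reads. A value of 0 allows up to 3 reads, which here is 0.0117 to 0.0249 TPM, counting error only. In Pv+ neuron 3, where Neat1 was highest, Malat1 still stood 608-fold above it. Of the 6 other genes listed around them, none had a mean of 10 TPM.

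Transcripts of the proteins with which these nuclear RNAs are known to assemble were read as well. No protein was measured, and each protein named here stands for its transcript. All 9 paraspeckle proteins on the list were above 0 in at least 1 cell, but Rbm14 was so only in VGT3+ neurons 1, 2 and 5. In VGT3+ minus Pv+, 4 of the 9 were past 2-fold upwards and 1 downwards (median -0.11), in VGT3+ minus Sst+ 2 and 2 (median -0.35), and in Pv+ minus Sst+ 1 and 3 (median -0.55). Over all genes averaging 1 TPM or more, 22.7% to 22.9% were past 2-fold upwards and 23.2% to 24.7% downwards, with a median of 0.00 in each pair. Their summed TPM was 226 to 469 in VGT3+, 88.5 to 191 in Pv+ and 164 to 848 in Sst+ neurons. Hnrnpk, an RNA-binding protein that acts in Neat1 processing, made up much of it and lay at 143 to 356 TPM in VGT3+ neurons, 20.5 to 113 TPM in Pv+ neurons and 71.8 to 375 TPM in Sst+ neurons. Nono, a core paraspeckle protein, lay at 14.6 to 156 TPM in VGT3+ neurons, 0.0894 to 20.1 TPM in Pv+ neurons and 33.5 to 178 TPM in Sst+ neurons. Of 6 nuclear speckle proteins averaging 1 TPM or more, 1 was past 2-fold upwards and 1 downwards in VGT3+ minus Pv+, 0 and 4 in VGT3+ minus Sst+, and 0 and 3 in Pv+ minus Sst+, with medians of -0.51, -1.38 and -0.98. Son, a scaffold of nuclear speckles, was at 4.95 to 75.5 TPM in VGT3+ neurons and at 80.5 to 256 TPM in the other 10 cells, without overlap (4.66% of genes in VGT3+ minus Pv+ and 1.51% in VGT3+ minus Sst+ had none). Its mean log2 difference was -2.46 for VGT3+ minus Pv+ and -2.25 for VGT3+ minus Sst+, but its 3 lowest values were those of VGT3+ neurons 3, 4 and 5 (12.5, 4.95 and 27.9 TPM). With VGT3+ neurons 1 and 2 alone these differences were -0.99 and -0.78, under 2-fold. The speckle counts then came to 2 upwards and 0 downwards against Pv+ neurons and 0 and 1 against Sst+ neurons, and the paraspeckle counts to 4 and 1 and to 3 and 3. Of all genes, 27.4% were then past 2-fold upwards and 23.4% downwards against Pv+ neurons, and 25.7% and 24.1% against Sst+ neurons. Srrm1, a splicing coactivator of the speckles, was listed at 0 in VGT3+ neuron 4 and lay at 9.12 to 92.1 TPM in the rest. Sf3b1, on the same list, went the other way, with VGT3+ minus Pv+ at 2.04 and VGT3+ minus Sst+ at 0.81. With VGT3+ neurons 1 and 2 alone these were 1.51 and 0.28.

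Snhg11 was highest in Sst+ neurons. It lies on the plus strand of chromosome 2 (chr2:158375638-158386145, 8521 exonic bases), and although named as a noncoding host gene it is typed as protein-coding in GENCODE M21. Snhg11 stood at 471, 224, 238, 48.3 and 424 TPM in VGT3+ neurons 1 to 5 and at 495, 12.7, 121, 247 and 160 TPM in Pv+ neurons 1 to 5. It stood at 1521, 1034, 1869, 593 and 93.1 TPM in Sst+ neurons 1 to 5. Sst+ neurons 1 to 4 lay above every VGT3+ and Pv+ neuron, and Sst+ neuron 5 lay within their range. The means were 281 ± 170 TPM in VGT3+ neurons, 207 ± 182 TPM in Pv+ neurons and 1022 ± 710 TPM in Sst+ neurons. VGT3+ minus Sst+ was -1.65 and Pv+ minus Sst+ was -2.46 in mean log2(TPM + 1), whereas VGT3+ and Pv+ neurons, the neighbours in this order, differed by 0.80 and overlapped widely. That difference was 0.00 without Pv+ neuron 2 and 1.34 without VGT3+ neuron 4. Within batch G709, VGT3+ minus Pv+ was 0.19 and VGT3+ minus Sst+ was -2.27. With VGT3+ neurons 1 and 2 alone they were 1.36 and -1.10.

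Miat followed Snhg11 at a lower level. It lies on the minus strand of chromosome 5 (chr5:112213228-112229395, 9293 exonic bases), and 24.3% of these bases lie under an antisense gene, Gm26953, that was listed at 0 in every cell. Miat stood at 29.6, 27.3, 40.0, 0 and 18.5 TPM in VGT3+ neurons 1 to 5 and at 37.0, 0, 10.7, 4.11 and 1.08 TPM in Pv+ neurons 1 to 5. It stood at 107, 75.1, 123, 33.9 and 0 TPM in Sst+ neurons 1 to 5. Sst+ neurons 1 to 3 lay above every other cell, and 1 cell of each type was listed at 0. VGT3+ minus Pv+ was 1.44, VGT3+ minus Sst+ was -1.14 and Pv+ minus Sst+ was -2.58. Within batch G709 the first of these was -0.30, where the 2 VGT3+ neurons were the ones at 0 and at 18.5 TPM. Single neurons decided the size of that difference: VGT3+ minus Pv+ was 2.41 without VGT3+ neuron 4 and 0.83 without Pv+ neuron 2. VGT3+ minus Sst+ was -0.17 without VGT3+ neuron 4, -2.39 without Sst+ neuron 5, and -0.70, -0.83 and -0.65 without Sst+ neuron 1, 2 or 3. With VGT3+ neurons 1 and 2 alone, VGT3+ minus Pv+ was 2.44 and VGT3+ minus Sst+ -0.14.

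The cells in which Miat was listed at 0 were those in which Snhg11 was lowest in its type: VGT3+ neuron 4, Pv+ neuron 2 and Sst+ neuron 5. Across the 15 cells, log2(TPM + 1) of Snhg11 and Miat had Pearson's r = 0.89 and Spearman's rho = 0.90. The value of r was 0.88 within VGT3+, 0.79 within Pv+ and 0.99 within Sst+ neurons, over 5 cells each. These are descriptions over cells that share line, batch and perhaps animal. Likeness was ranked by Pearson's r among 4592 genes that averaged 10 TPM or more and were above 0 in at least 10 cells. Miat was the gene most like Snhg11 by this measure, followed by Gas5 (r = 0.86) and Rsrp1 (r = 0.85). In the 12 cells of batch G709 alone r was 0.92, 0.86 and 0.93, and rho over 15 cells was 0.90, 0.90 and 0.95. By both of these Rsrp1 was ahead of Miat. For Miat the most similar genes were Nrbp2 (r = 0.90), Snhg11 and Srek1 (r = 0.89), and in the 12 cells of batch G709 alone these values were 0.91, 0.92 and 0.90. Rsrp1 and Srek1 encode serine- and arginine-rich proteins of the splicing machinery.

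**Figure D3:**
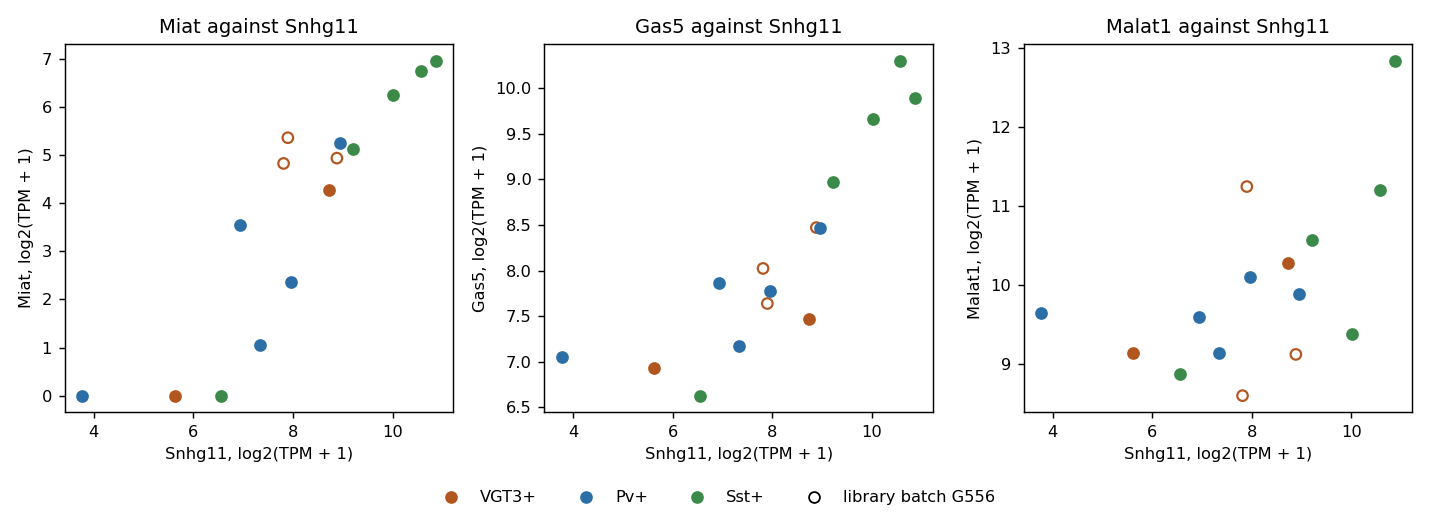
Miat, Gas5 and Malat1 (vertical axes) against Snhg11 (horizontal axis), all as log2(TPM + 1), with 1 point per cell, colours for the types and open points for batch G556. Miat and Gas5 were highest where Snhg11 was highest, in Sst+ neurons 1 to 3, and Malat1 was more loosely arranged (r = 0.55).

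Gas5, a host of small nucleolar RNAs whose spliced transcript is exported to the cytoplasm, is no member but showed the same arrangement. It stood at 121 to 354 TPM in VGT3+ neurons, at 131 to 353 TPM in Pv+ neurons and at 1262, 807, 952, 501 and 98.0 TPM in Sst+ neurons 1 to 5. Sst+ neurons 1 to 4 again lay above all VGT3+ and Pv+ neurons, but for Gas5 Sst+ neuron 5 lay below them all. The microglial sum moved the other way among Sst+ neurons, at 0.433, 177 and 313 TPM in cells 1 to 3 and 5155 and 1650 TPM in cells 4 and 5. In VGT3+ neurons 1 to 5 the sum was 24356, 823, 5795, 20576 and 133 TPM, and Snhg11 was highest in neuron 1 and lowest in neuron 4. The part of the sum in these levels was not tested. With Sst+ neurons 4 and 5 alone, an alternative chosen after the data were seen, VGT3+ minus Sst+ was -0.09 for Snhg11 and 1.32 for Miat. Pv+ minus Sst+ was then -0.89 for Snhg11 and -0.12 for Miat, under 2-fold. Sst+ neurons 4 and 5 were the lowest of their type in both genes, so the choice fixed in advance that these differences would rise.

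Of 20 host genes of small nucleolar RNAs on the list, 11 were in the table and each of these averaged 1 TPM or more. In VGT3+ minus Pv+, 4 of 11 were past 2-fold upwards and 2 downwards, with a median difference of 0.04. In VGT3+ minus Sst+, 3 were past 2-fold upwards and 4 downwards (median -0.86). In Pv+ minus Sst+, 2 were past it upwards and 4 downwards (median -0.58). The shares over all genes are those given for the paraspeckle proteins. Snhg9 was the third most abundant of them, at 8.17 to 303 TPM in VGT3+ neurons, 141 to 360 TPM in Pv+ neurons and 98.3 to 978 TPM in Sst+ neurons. Its 3 lowest values were those of VGT3+ neurons 3, 4 and 5, and VGT3+ minus Pv+, at -2.16 over all 5, was 0.30 with VGT3+ neurons 1 and 2 alone. With these 2 neurons the host gene counts were 6 upwards and 1 downwards against Pv+ neurons, and 2 and 1 against Sst+ neurons. Snhg4 was at 0 to 55.0 TPM in VGT3+ neurons, 0 to 29.7 TPM in Pv+ neurons and 19.6 to 194 TPM in Sst+ neurons.

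Dlx6os1 separated the types in the opposite sense. Its longer entry lies on the minus strand of chromosome 6 (chr6:6820189-6871592, 5173 exonic bases, annotated as antisense). It stood at 68.5, 93.4, 188, 0 and 142 TPM in VGT3+ neurons 1 to 5 and at 73.1, 14.6, 5.84, 10.3 and 24.2 TPM in Pv+ neurons 1 to 5. In Sst+ neurons 1 to 5 it stood at 0, 2.46, 0, 24.0 and 0 TPM. Apart from VGT3+ neuron 4, listed at 0, every VGT3+ neuron lay above every Sst+ neuron. Pv+ neurons overlapped both: Pv+ neuron 1 lay above VGT3+ neuron 1, and Pv+ neurons 2, 3 and 4 lay below Sst+ neuron 4. VGT3+ minus Sst+ was 4.19, Pv+ minus Sst+ was 2.93 and VGT3+ minus Pv+ was 1.26. The last of these was -0.64 within batch G709, where the 2 VGT3+ neurons were the ones at 0 and at 142 TPM. It was 2.63 without VGT3+ neuron 4, and 0.99, 0.74, 0.84 and 0.90 without VGT3+ neuron 2, 3 or 5 or Pv+ neuron 3. With VGT3+ neurons 1 and 2 alone, VGT3+ minus Pv+ was 2.12 and VGT3+ minus Sst+ 5.05.

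The second entry of Dlx6os1 is a model of 146 bases at the 5′ end of the same gene (ENSMUSG00000098326, chr6:6871488-6871633, GRCm38, minus strand), 104 bases of which it shares with the longer entry. Its sequence is shown, with capitals for the 42 bases outside that entry, because reads inside the shared part cannot be given to either entry alone:
Dlx6os1 second entry: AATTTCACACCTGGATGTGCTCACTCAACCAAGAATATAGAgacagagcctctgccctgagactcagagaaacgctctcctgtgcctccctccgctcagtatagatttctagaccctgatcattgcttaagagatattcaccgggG
It was listed at 417 TPM in VGT3+ neuron 2, at 4.70 TPM in Pv+ neuron 2, at 731 TPM in Sst+ neuron 5 and at 0 in the other 12 cells. These correspond to 749, 5 and 877 reads. Sst+ neuron 5 was thus without the longer entry and had the highest level of the shorter one. The TPM of both entries were also added as deposited, an alternative chosen after the data were seen. Pv+ minus Sst+ was then 1.11 in place of 2.93, VGT3+ minus Sst+ 2.78 in place of 4.19, and VGT3+ minus Pv+ 1.67 in place of 1.26. A read of the shorter entry is divided by 146 bases and one of the longer by 5173, so the former weighs more in this sum. The sum is therefore not read as the level of the whole gene.

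The protein-coding genes of the Dlx family encode homeobox factors of GABAergic neurons, and 4 of them, Dlx1, Dlx2, Dlx5 and Dlx6, averaged 1 TPM or more. In VGT3+ minus Sst+, 3 of the 4 were past 2-fold upwards and 0 downwards (median 1.54), where 22.9% of all genes were past it upwards and 24.7% downwards. In Pv+ minus Sst+ it was again 3 and 0 (median 1.51; all genes 22.9% and 23.2%). In VGT3+ minus Pv+, 2 were past 2-fold upwards and 1 downwards (median 0.53; all genes 22.7% and 24.1%). Dlx1 and Dlx5 thus had the order of Dlx6os1, whereas Dlx2 and Dlx6 were higher in Pv+ than in VGT3+ neurons, at -0.47 and -1.19. With VGT3+ neurons 1 and 2 alone the counts were the same, with Dlx2 in place of Dlx6 against Sst+ neurons. Dlx1 lay at 22.9 to 111 TPM in VGT3+ neurons, 8.13 to 24.8 TPM in Pv+ neurons and 0 to 25.5 TPM in Sst+ neurons. Its antisense transcript Dlx1as lay at 3.36 to 144 TPM in VGT3+ neurons, 0 to 41.2 TPM in Pv+ neurons and 0 to 32.0 TPM in Sst+ neurons. Without strand marking, Dlx1 and Dlx1as cannot be told apart where they overlap. Dlx5 and Dlx6, which flank Dlx6os1, were sparser. Dlx5 passed 10 TPM only in VGT3+ neurons 2 and 5 (43.7 and 16.5 TPM), and Dlx6, the 1 gene past 2-fold downwards, was at 0 to 35.2 TPM in VGT3+ neurons, 0 to 82.6 TPM in Pv+ neurons and 0 to 9.56 TPM in Sst+ neurons. Dlx2 was at 0 to 4.53 TPM in VGT3+ neurons, 0 to 8.63 TPM in Pv+ neurons and 0 in all Sst+ neurons. The genes most like Dlx6os1 over the 15 cells were Fgf1 (r = 0.94), Fkbp4 (r = 0.90) and Ythdf1 (r = 0.88).

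Meg3 and Rian were listed at or near 0 in these libraries, and Mirg was low and uneven. Meg3 (chr12:109541001-109571726, plus strand, 18089 exonic bases) stood at 0, 0.0225, 0, 0 and 0 TPM in VGT3+ neurons 1 to 5 and at 0.0854, 0, 0.0375, 0.00617 and 0.00721 TPM in Pv+ neurons 1 to 5. It stood at 0.0191, 0.00617, 0.190, 0.652 and 0.00673 TPM in Sst+ neurons 1 to 5. Converted to reads, these values were 5 reads in the 1 VGT3+ neuron above 0, no more than 10 in any Pv+ neuron, and 2, 1, 20, 99 and 1 in Sst+ neurons 1 to 5, out of at least 13217462 per cell. Meg3 was therefore above 0 in 1 of 5 VGT3+, 4 of 5 Pv+ and 5 of 5 Sst+ neurons, with 5 reads or fewer in 7 of these 10 cells, and at this depth its difference between types (VGT3+ minus Sst+ -0.20) rested on Sst+ neurons 3 and 4. Rian (chr12:109603940-109661716, plus strand, 18234 exonic bases) was above 0 only in Sst+ neuron 2, at 0.0128 TPM. By the annotated length that value came to 2.09 reads, not a whole number. Its second entry, whose identifier is not placed in the annotation used here, did not exceed 0.0691 TPM. Whether the 2 entries of Rian share exons could not be seen. Reads in a shared part cannot be given to either entry alone, so low values of Rian cannot be read as its absence.

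Mirg was the most abundant of the 3 (chr12:109729764-109749460, plus strand, 7292 exonic bases). Mirg stood at 4.59, 0.579, 0, 0 and 0 TPM in VGT3+ neurons 1 to 5 and at 0.0424, 0.0188, 1.25, 7.63 and 0.0894 TPM in Pv+ neurons 1 to 5. In Sst+ neurons 1 to 5 it stood at 2.79, 0.948, 25.9, 0.817 and 0 TPM. Sst+ neuron 3, which also had the highest Malat1 and Snhg11, had the highest Mirg, with 1099 reads, and the types overlapped. VGT3+ minus Sst+ was -1.07 and Pv+ minus Sst+ was -0.80, and without Sst+ neuron 3 these came to -0.31 and -0.04. The first was -0.91 without any 1 of VGT3+ neurons 3, 4 and 5, and -0.13 with VGT3+ neurons 1 and 2 alone.

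The 3 transcripts did not vary together in a way that the few reads of Meg3 and Rian could show. Meg3 and Mirg were both above 0 in 9 cells, with r = 0.17 and rho = 0.43 over 15 cells, and r was 0.61 without Sst+ neuron 4. Meg3 and Rian were both above 0 in 1 cell. Of the rest of the region, Dlk1, Dio3 and Dio3os were listed at 0 in every cell, and Begain, upstream of Dlk1, reached 34.3 TPM in VGT3+ neuron 3, 10.2 TPM in Pv+ neuron 1 and 12.2 TPM in Sst+ neuron 5. All 59 microRNA genes placed between Dlk1 and Dio3 were listed at 0, and 1 of 23 small nucleolar RNA genes there was above 0, at 5.07 TPM at most.

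Mirg is the host of microRNAs, and a few of those inside it are shown with the seed, bases 2 to 8, in capitals (RefSeq, GRCm38.p6, plus strand of chromosome 12). The first 4 lie wholly within Mirg exons, so that a read of the host over these bases overlaps both entries, and the last pair is the only one among the 26 mature microRNAs inside Mirg to share a seed:
mmu-miR-134-5p: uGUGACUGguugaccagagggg
mmu-miR-485-3p: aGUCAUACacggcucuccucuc
mmu-miR-377-3p: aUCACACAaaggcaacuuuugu
mmu-miR-410-3p: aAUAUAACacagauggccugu
mmu-miR-453: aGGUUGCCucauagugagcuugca
mmu-miR-496a-5p: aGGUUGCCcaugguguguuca
All 13 microRNA genes of the table that lie inside Mirg were listed at 0 in every cell, with libraries made from polyadenylated RNA. Over the whole table, 83 of 85 genes lying under another gene of the same strand over 99% or more of their exons were also at 0 in every cell, against 56.3% of 27562 genes without overlap. A 0 for a gene nested in another can therefore not be read as its level.

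A difference of at least 2-fold in either direction was found for 2 of 8 members in VGT3+ minus Pv+ (Miat and Dlx6os1), where 46.7% of the 12825 genes averaging 1 TPM or more passed it. In VGT3+ minus Sst+ it was found for 4 of 8 (Mirg, Miat, Snhg11 and Dlx6os1), where 47.6% of genes passed it, and in Pv+ minus Sst+ for 3 of 8 (Miat, Snhg11 and Dlx6os1), where 46.1% did. For no member were the cells of 2 types without overlap, compared with 4.66% of genes in VGT3+ minus Pv+, 1.51% in VGT3+ minus Sst+ and 5.07% in Pv+ minus Sst+. Only 5 of the 8 members averaged 1 TPM or more, as all genes of that background do, and every member past 2-fold was among these 5. Over the genes above 0 in at least 1 cell, at least 33.1% passed 2-fold in each pair. With so few members nothing is read from their share. The TPM scale itself was shifted between types: the 1709 genes above 0 in all cells had a median difference of 0.38 in VGT3+ minus Pv+, 0.06 in VGT3+ minus Sst+ and -0.30 in Pv+ minus Sst+. After division by size factors over these genes, VGT3+ minus Pv+ was -0.43 for Malat1, 1.12 for Miat and 0.86 for Dlx6os1, and Pv+ minus Sst+ was -2.08 for Snhg11, -2.36 for Miat and 3.13 for Dlx6os1.

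**Figure D4:**
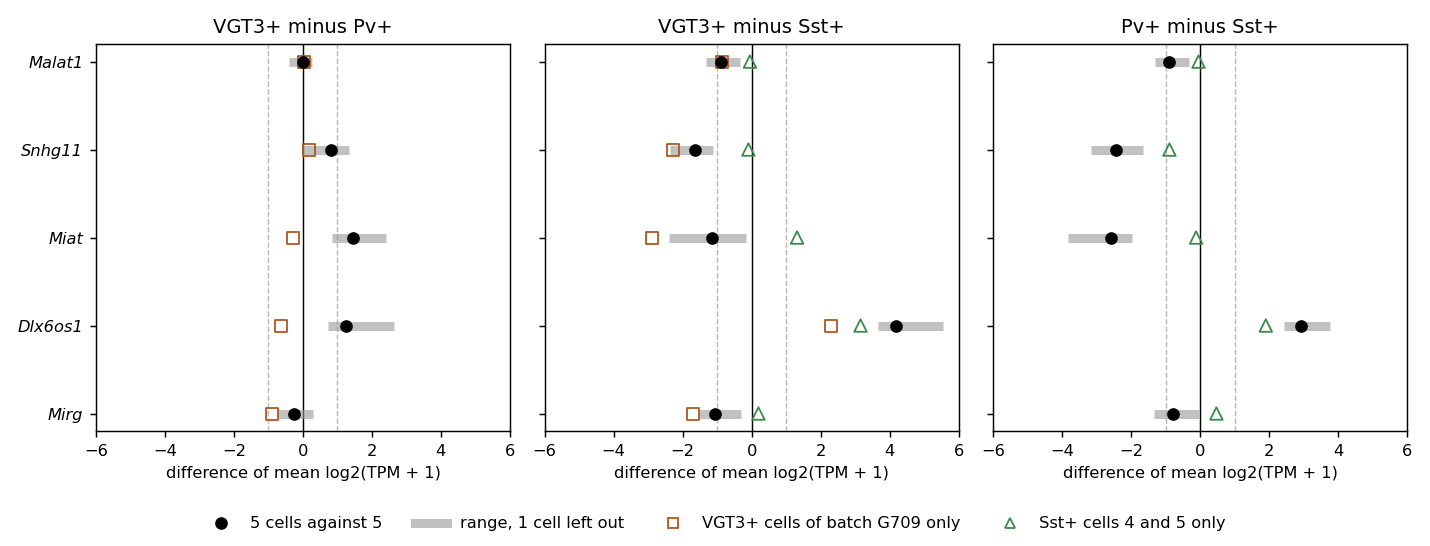
Difference of mean log2(TPM + 1) (horizontal axis, dashed lines at 2-fold) of the 5 members averaging 1 TPM or more, for each pair of types. Black points are 5 cells against 5, grey bars the range when 1 cell is left out, open squares VGT3+ neurons of batch G709 only and open triangles Sst+ neurons 4 and 5 only. Dlx6os1 in VGT3+ minus Sst+ kept its direction in all of these (2.29 to 5.56), whereas Miat changed direction in 2 of the 3 pairs. In VGT3+ minus Sst+ it did so only with Sst+ neurons 4 and 5, the lowest of their type in Miat.

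Other noncoding RNAs were read beside the members. Of 9 further nuclear noncoding RNAs, 8 were above 0 in at least 1 cell. Airn, the imprinted transcript antisense to Igf2r, lay at 13.5 to 146 TPM in 4 Pv+ neurons and at 0 in Pv+ neuron 2, and was otherwise above 0 only in Sst+ neuron 4 (6.85 TPM). Rn7sk, a nuclear regulator of transcription elongation, lay at 0 to 38.7 TPM in VGT3+ neurons, 0 to 136 TPM in Pv+ neurons and 0 to 143 TPM in Sst+ neurons. Xist, which coats the inactive X chromosome, lay at 24.2 TPM in VGT3+ neuron 5, at 16.3 and 15.6 TPM in Sst+ neurons 1 and 3, and at no more than 0.408 TPM elsewhere. Among noncoding RNAs of neurons, Pantr1 lay at 0 to 113 TPM in VGT3+ neurons, 19.9 to 109 TPM in Pv+ neurons and 0.125 to 555 TPM in Sst+ neurons. Of the splicing factors known to bind Miat, Qk lay at 42.2 to 161 TPM in VGT3+ neurons, 3.19 to 53.1 TPM in Pv+ neurons and 2.86 to 33.7 TPM in Sst+ neurons. VGT3+ and Sst+ neurons had no overlap, as was so for 1.51% of genes in this pair. Its VGT3+ minus Sst+ difference was 2.46, and 1.88 with VGT3+ neurons 1 and 2 alone. Celf3 passed 10 TPM only in Sst+ neuron 3 (25.2 TPM), the cell of highest Miat. Sf1, the remaining factor on the list, was arranged otherwise. In Sst+ neurons 1 to 5 it stood at 0, 49.3, 0, 0 and 37.0 TPM, where Miat stood at 107, 75.1, 123, 33.9 and 0 TPM.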

How the data were processed

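Polyadenylated RNA of 15 aspirated interneurons was sequenced as 1 library each. Per the submitters' processing notes and the study's methods, reads were de-multiplexed with bcl2fastq, trimmed, aligned to GRCm38 with HISAT2 2.1.0 and counted on Ensembl genes with HTSeq; the strand setting of HTSeq is not given in the sources used here. The authors then divided counts by gene length and scaled each cell to 1000000, and these TPM values are what was deposited. All columns were used. The methods text names fewer VGT3+ neurons than the table holds; all 5 were kept.

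From the TPM, means of log2(TPM + 1), differences between types, ranges, ranks and correlations were computed (numpy 2.4.6 and pandas 2.3.3 under Python 3.11.15). No test was made, because cells of a type are not separate samples. Scripts were tested on simulated data. Genes averaging 1 TPM or more formed the background. Lengths, overlaps and coordinates came from GENCODE M21 (GRCm38), which holds 42548 of the 43629 identifiers; it is not the release used for counting. Reads were estimated as TPM times length over the commonest value of that product, the worth of 1 read; between 71.8% and 76.1% of values under 50 reads came out within 0.01 of a whole number. Limits for a value of 0 take 3 reads. The genes named were the members, some of the listed genes averaging 10 TPM or more, some Dlx and Dlk1-Dio3 genes and the 3 genes most correlated with Snhg11, Miat and Dlx6os1. For Malat1 these 3 are given with the other observations, and the remaining members were too sparse. Other genes were named after their values were seen. The members and lists were chosen with earlier results of these data known. Alternatives were batch G709 alone, size factors, TPM without mitochondrial genes and the 10 most abundant genes, a pseudocount of 0.1, medians, a log2 ratio of means, and leaving out each neuron.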

Additional observations from a re-analysis of the deposited data

Results flagged for a closer look

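In 5 of 16 groups of 5 neurons in which a member reached 1 TPM, 1 neuron lay far from the other 4 on the log2(TPM + 1) scale. The measure was the gap to its nearest neighbour over the whole range (Dixon's ratio), and 0.71 served as a cut-off only. Some of these groups hold several values of 0, for which the ratio was not made, so no rate of chance is set beside the 5 of 16. The high ones were Mirg in VGT3+ neuron 1, at 4.59 TPM, and Neat1 in Pv+ neuron 3, at 1.27 TPM. The low ones were all values of 0. Miat was listed at 0 in VGT3+ neuron 4 and at 0 in Sst+ neuron 5. Dlx6os1 was listed at 0 in VGT3+ neuron 4. VGT3+ neuron 4 had 6005 genes above 0 and a microglial sum of 20576 TPM, and Sst+ neuron 5 had 7849 genes above 0 and the highest sum of the oligodendrocyte genes, 1363 TPM. VGT3+ neuron 1 had a higher microglial sum, 24356 TPM, with Miat at 29.6 and Dlx6os1 at 68.5 TPM. VGT3+ neuron 3 had fewer genes above 0, 5463, with Miat at 40.0 and Dlx6os1 at 188 TPM. The part of gene number and of these sums in the values of 0 was not tested.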

How the results depend on the processing

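The count of members past 2-fold in VGT3+ minus Pv+ (2 of 8) was 0 in batch G709 alone, and 1 with size factors, without mitochondrial and the 10 most abundant genes, or with a pseudocount of 0.1. In Pv+ minus Sst+ (3 of 8) it was 5 as a log2 ratio of means and 1 with Sst+ neurons 4 and 5 only. In VGT3+ minus Sst+ (4 of 8) it was 2 with Sst+ neurons 4 and 5 only. With 1 neuron left out, the count ranged from 1 to 3 in VGT3+ minus Pv+, from 2 to 5 in VGT3+ minus Sst+ and from 3 to 5 in Pv+ minus Sst+. The low counts came without VGT3+ neuron 2, 3 or 5 or Pv+ neuron 2 or 3 in the first pair and without VGT3+ neuron 4 or Sst+ neuron 3 in the second, and the high counts in the third without Pv+ neuron 4 or Sst+ neuron 5. The share over all genes was not computed under these settings, so nothing is read from how the counts moved.

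The count of members without overlap was 0 in each pair. For batch G709 alone it was 1 in VGT3+ minus Pv+ (Mirg) and 1 in VGT3+ minus Sst+ (Meg3). Both VGT3+ neurons were then at 0, and the lowest value on the other side was 1 read (0.0188 TPM of Mirg, 0.00617 TPM of Meg3). With VGT3+ neurons 1 and 2 only it was again 1 in each (Malat1 against Pv+ and Dlx6os1 against Sst+ neurons). It was 1 in VGT3+ minus Pv+ with the opposite-strand reads taken off Malat1. Leaving out 1 neuron gave 0 to 1 in VGT3+ minus Sst+, 0 to 1 in Pv+ minus Sst+ and 0 in VGT3+ minus Pv+. The 1 came without VGT3+ neuron 2 or 4 or Sst+ neuron 5 in VGT3+ minus Sst+, and without Sst+ neuron 4 or 5 in Pv+ minus Sst+. Without VGT3+ neuron 2 it was Meg3, at 0 in all VGT3+ neurons left. Smaller groups part more readily, and the share over all genes was not computed for them.

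The choices of VGT3+ neurons 1 and 2, of Sst+ neurons 4 and 5 and of Malat1 less those reads were made after the data were seen. Sst+ neurons 4 and 5 were the lowest of their type in Snhg11, Miat and Mirg. A rise of these members' differences from Sst+ neurons was thus fixed by that choice. Among differences past 2-fold, 4 of 79 values under alternatives that did not leave out 1 neuron had the opposite sign, and 0 of 90 with 1 neuron left out. Among those under 2-fold, 7 of 129 and 8 of 150 had it, most often Malat1 in VGT3+ minus Pv+ (0.00; -1.54 to -0.18 where negative without leaving out a neuron) and Mirg. Mirg was 0.67 in VGT3+ minus Pv+ with VGT3+ neurons 1 and 2 only and 0.47 in Pv+ minus Sst+ with Sst+ neurons 4 and 5 only. The 4 past 2-fold were as follows. In VGT3+ minus Pv+, Miat was -0.30 and Dlx6os1 -0.64 in batch G709 alone. In VGT3+ minus Sst+ with Sst+ neurons 4 and 5 only, Mirg was 0.20 and Miat 1.32. The correlation of Meg3 with Mirg (r = 0.17) was 0.31 with a pseudocount of 0.1 and 0.43 as Spearman's rho, and ranged from -0.00115 (without Sst+ neuron 3) to 0.61 (without Sst+ neuron 4). The causes were not tested. The members above 0 in all 15 neurons (2) were also 2 at 1 TPM or at 10 TPM. No paired analysis was possible because the replicate numbers only name cells and no test was made. For Meg3, Rian and Neat1 most values are 0 or rest on a few reads, which limits what their differences can show.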

Other observations

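The genes with the pattern most like that of Malat1 over the 15 cells were Cog5 (r = 0.84), a subunit of a Golgi tethering complex, Fbxo21 (r = 0.83) and Senp3 (r = 0.80), a SUMO protease of the nucleolus. In the 12 cells of batch G709 the values were 0.81, 0.80 and 0.77. None of the 3 was above 100 TPM in any cell, and each was listed at 0 in at least 1. Malat1 and Snhg11 were less alike (r = 0.55), and the ratio of Snhg11 to Malat1 ranged from 0.086 to 0.851 in VGT3+ neurons, from 0.0159 to 0.529 in Pv+ neurons and from 0.199 to 1.56 in Sst+ neurons.

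Further host genes of small nucleolar RNAs were high in single neurons. Snhg3 was at 262 and 163 TPM in VGT3+ neurons 4 and 5 and at no more than 9.84 TPM in the other 13. These are the VGT3+ neurons in which, together with VGT3+ neuron 3, genes under an opposite-strand gene were above 0, and the part of that in the level of Snhg3 was not tested. Snhg5 was at 93.1 and 44.4 TPM in VGT3+ neurons 1 and 5, at 10.2 TPM or less in Pv+ neurons, and at 161 and 235 TPM in Sst+ neurons 3 and 5, with the other 3 Sst+ neurons at 0.

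Of the opposite-strand models inside Dlx6os1, Gm27905 was listed at 120 TPM and Gm27699 at 4.66 TPM in VGT3+ neuron 5 and at 0 in the other 14 neurons. Dlx6os1 itself was at 142 TPM there.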
